A study of Mus musculus with 4 samples.

Results

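The 10 genes described here encode platelet-derived growth factors (Pdgfa, Pdgfb, Pdgfc) with the receptor gene Pdgfra, and fibroblast growth factors (Fgf2, Fgf5, Fgf7) with the receptor genes Fgfr1, Fgfr2 and Fgfr3. They were taken by symbol, as growth factor genes that act in hair growth and wound repair, from a table of 25571 genes, and all 10 were found. Mouse skin RNA had been sequenced for 4 groups, each with 1 library. The groups were skin given platelet-rich plasma (PRP), the platelet concentrate of blood, with microneedles (labelled PRP-MNs), skin given PRP, skin given microneedles (MNs), which are arrays of fine needles that open the skin surface, and an NC group whose letters the labels do not spell out. Below, NC is taken as skin given neither PRP nor microneedles, which the labels do not state. Strain, sex, age, site and time of harvest, and whether a library pooled animals, are not stated in the sources used here. With 1 library per group there was no replicate error, no test between groups could be run, and each difference is one between libraries.

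Platelet-derived growth factors are secreted dimers that signal through receptor tyrosine kinases on mesenchymal cells. In skin Pdgfra marks dermal fibroblasts, the precursors of dermal fat cells and the dermal papilla, the signalling centre at the base of the hair follicle. Fibroblast growth factors bind receptor tyrosine kinases together with heparan sulfate. Fgf7 (keratinocyte growth factor) is made by dermal cells and acts on a splice form of Fgfr2 carried by epithelial cells, and Fgf5 ends the growth phase of the hair cycle in mice.

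The levels are FPKM, fragments per kilobase of transcript scaled to library depth, so levels of different genes can be compared. Steps between low values corresponded to about 17.2 M fragments for PRP-MNs, 15.9 M for PRP, 18.6 M for MNs and 19.4 M for NC. A floor of 3 fragments on a 1 kb transcript lay between 0.155 and 0.189 FPKM. The 95% intervals given below are exact Clopper-Pearson intervals on fragment numbers estimated from these depths and the longest annotated coding transcript, and like the floors they cover counting error only. Keratinocyte, fibroblast, endothelial, macrophage, fat, nerve and muscle markers were found in every library: all 6 basal keratinocyte markers and all 8 fibroblast markers were above 1 FPKM in each. The 6 skeletal muscle markers summed to 7328 FPKM for PRP-MNs, 8787 for PRP, 4776 for MNs and 5024 for NC, so muscle transcripts were present in each library. In such bulk samples, fewer cells of a type and less RNA per cell cannot be told apart.

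The promoters of the 2 members furthest above NC on the log2 scale in PRP-MNs, Pdgfra and Fgf7, and of the 2 members below NC in every other library, Fgfr2 and Fgfr3, are shown so that their start regions can be compared. Each is the RefSeq window on GRCm38.p6 from 250 bases before to 50 bases after a RefSeq start, 5′ to 3′ on the strand of the gene. This start need not be the outer end of the gene span given below. The Fgfr2 window lies inside that span, far from its outer start. Capitals mark matches on either strand to the TATA box (TATAAA), the GC box (GGGCGG), the CCAAT box (CCAAT) or the AP-1 site (TGANTCA).
Pdgfra, chr5:75152001-75152300, plus strand: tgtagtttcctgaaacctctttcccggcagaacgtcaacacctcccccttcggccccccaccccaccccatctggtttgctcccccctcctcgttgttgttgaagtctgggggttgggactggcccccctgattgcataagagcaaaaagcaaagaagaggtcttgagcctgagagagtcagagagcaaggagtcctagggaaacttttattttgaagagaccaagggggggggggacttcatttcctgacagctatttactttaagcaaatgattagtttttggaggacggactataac
Fgf7, chr2:126034408-126034707, plus strand: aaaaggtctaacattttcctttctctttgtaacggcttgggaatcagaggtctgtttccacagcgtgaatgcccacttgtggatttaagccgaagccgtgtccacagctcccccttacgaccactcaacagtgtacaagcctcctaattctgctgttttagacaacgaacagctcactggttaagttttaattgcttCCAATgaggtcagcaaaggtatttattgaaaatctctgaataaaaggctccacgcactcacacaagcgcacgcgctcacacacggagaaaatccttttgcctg
Fgfr2, chr7:130266759-130267058, minus strand: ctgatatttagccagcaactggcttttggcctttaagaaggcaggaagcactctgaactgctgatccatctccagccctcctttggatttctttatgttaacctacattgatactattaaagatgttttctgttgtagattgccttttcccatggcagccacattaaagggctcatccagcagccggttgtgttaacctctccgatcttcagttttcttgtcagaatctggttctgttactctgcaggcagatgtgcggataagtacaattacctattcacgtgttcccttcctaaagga
Fgfr3, chr5:33721474-33721773, plus strand: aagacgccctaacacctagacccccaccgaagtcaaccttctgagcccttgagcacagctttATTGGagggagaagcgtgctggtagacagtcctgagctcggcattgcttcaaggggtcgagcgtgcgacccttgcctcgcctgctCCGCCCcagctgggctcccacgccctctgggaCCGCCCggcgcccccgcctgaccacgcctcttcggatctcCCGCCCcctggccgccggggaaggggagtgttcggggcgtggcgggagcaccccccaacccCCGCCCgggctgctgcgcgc
The Fgfr3 window held 4 GC boxes and 1 CCAAT box, the Fgf7 window 1 CCAAT box, and the Pdgfra and Fgfr2 windows none of the 4 motifs. Among all 32851 RefSeq promoter windows, 35.7% held a GC box, 37.4% a CCAAT box, 13.6% a TATA box and 7.81% an AP-1 site. The Fgfr2 and Fgfr3 windows differed in base composition, at 43.7% and 69.7% G or C, against a median of 52.7% over all windows. These matches are a description of the letters and not of binding. A total of 8 members had a window, and Pdgfa and Fgfr3 had more than 1, of which the first is shown for Fgfr3.

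Among the factor genes of the PDGF family, Pdgfa had the largest difference between PRP-MNs and NC. Its level was 11.8 FPKM for PRP-MNs, 8.38 for PRP, 6.68 for MNs and 5.27 for NC. The PRP-MNs level was 2.24-fold that of NC (95% counting interval 1.90 to 2.66), and both libraries with PRP were above both libraries without it. Pdgfa (ENSMUSG00000025856, GRCm38 chr5:138976014-138997370, minus strand) encodes the A chain, which binds the alpha receptor.

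Pdgfb, which encodes the B chain made by endothelial cells and carried by platelets, varied least of the 10 genes. It was at 9.94 FPKM for PRP-MNs, 7.37 for PRP, 6.70 for MNs and 7.01 for NC. PRP-MNs alone stood apart, 1.42-fold above NC (1.24 to 1.62), while the intervals of PRP over NC (0.909 to 1.22) and of MNs over NC (0.827 to 1.10) included 1. The 6 blood endothelium markers summed to 168 FPKM for PRP-MNs, 56.4 for PRP, 111 for MNs and 19.8 for NC, so the marker sum differed 8.50-fold between PRP-MNs and NC where Pdgfb differed 1.42-fold. The 6 platelet markers summed to 294 FPKM for PRP-MNs, 75.7 for PRP, 170 for MNs and 23.6 for NC, most of it Pf4 (236 FPKM for PRP-MNs, 70.9 for PRP, 161 for MNs and 21.7 for NC), and 3 of them reached 1 FPKM in PRP-MNs, against 2 in NC. Ppbp, a chemokine gene of platelets, had the largest difference of the list, at 56.1 FPKM for PRP-MNs, 0.738 for PRP, 6.06 for MNs and 0.315 for NC. Gp9, a platelet glycoprotein gene, was listed at 0 in PRP-MNs and had 0.644 FPKM in the PRP library, 0.170 in the MNs library and 0.0588 in the NC library. Of the 6 platelet markers, 3 were above their NC level in PRP-MNs, 6 in PRP and 5 in MNs. The part of endothelial or platelet RNA in the Pdgfb levels was not tested.

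Pdgfc, whose protein is released as a latent factor and cut by proteases before it binds the alpha receptor, was highest in the MNs library. It was at 3.42 FPKM for PRP-MNs, 2.84 for PRP, 5.44 for MNs and 2.70 for NC. MNs stood 2.02-fold above NC (1.68 to 2.42), and the PRP level did not differ from NC beyond counting error (0.845 to 1.31). The sum of the 3 PDGF factor genes was 25.2 FPKM for PRP-MNs, 18.6 for PRP, 18.8 for MNs and 15.0 for NC. Pdgfa made up 47.0% of that sum for PRP-MNs, 45.1% for PRP, 35.5% for MNs and 35.2% for NC. Pdgfb held the largest share in NC, at 46.8%, and Pdgfc reached its largest share in MNs, at 28.9%.

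The receptor gene Pdgfra differed far more than its ligands. Its level was 45.6 FPKM for PRP-MNs, 15.6 for PRP, 59.8 for MNs and 4.75 for NC. Both libraries with microneedles were high, PRP was between them and NC, and NC was lowest. Pdgfra was thus 9.60-fold higher in PRP-MNs than in NC (8.84 to 10.4), 3.28-fold higher in PRP (2.99 to 3.60) and 12.6-fold higher in MNs (11.6 to 13.7). Against PRP, the PRP-MNs library was 2.93-fold higher (2.77 to 3.10), whereas against MNs it was at 0.763 of the level (0.737 to 0.790). Pdgfra (ENSMUSG00000029231) lies on GRCm38 at chr5:75152292-75198215 on the plus strand.

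Fibroblast markers did not follow Pdgfra in the PRP-MNs library. The 8 fibroblast markers summed to 1066 FPKM for PRP-MNs, 2017 for PRP, 7470 for MNs and 1011 for NC, with none at 0. In MNs the marker sum was 7.39-fold that of NC and Pdgfra 12.6-fold. In PRP-MNs the marker sum was 1.05-fold that of NC, with 5 of 8 markers above their NC level, beside 9.60-fold for Pdgfra. Fbn1, the gene of the microfibril protein fibrillin-1, was at 30.1 FPKM in PRP-MNs against 8.49 FPKM in NC, while Dpt, a gene of the dermal matrix protein dermatopontin, was at 64.9 FPKM in PRP-MNs against 94.4 FPKM in NC. The sums of other cell types were also higher in PRP-MNs than in NC. The 6 dermal papilla markers summed to 74.6 FPKM for PRP-MNs, 29.6 for PRP, 108 for MNs and 23.1 for NC, the order of libraries of Pdgfra. Only 3 of them were above their NC level in PRP-MNs, 3 in PRP and 5 in MNs. Most of the PRP-MNs sum was Vcan (45.3 FPKM, against 1.33 in NC) and Crabp1 (23.0 against 7.47). Lower in PRP-MNs than in NC were Sostdc1 (2.88 against 12.4), Rspo3 (0.307 against 1.24) and Corin (0.0120 against 0.104). The 6 adipocyte markers summed to 880 FPKM for PRP-MNs, 874 for PRP, 1128 for MNs and 388 for NC, and the 5 Schwann cell markers to 98.1 FPKM for PRP-MNs, 117 for PRP, 114 for MNs and 36.7 for NC. Marker sums of blood and vessel wall cells differed as well. The 6 macrophage markers summed to 554 FPKM for PRP-MNs, 279 for PRP, 486 for MNs and 96.0 for NC, and the 6 neutrophil markers to 1019 FPKM for PRP-MNs, 406 for PRP, 182 for MNs and 234 for NC. Most of the neutrophil sum was S100a8 and S100a9, which were lower in MNs (41.1 and 106 FPKM) than in NC (62.8 and 163 FPKM). The other 4 neutrophil markers were above their NC level in MNs. Csf3r was at 89.5 FPKM for PRP-MNs, 10.1 for PRP, 15.9 for MNs and 0.736 for NC. The 6 pericyte and smooth muscle markers summed to 826 FPKM for PRP-MNs, 726 for PRP, 507 for MNs and 317 for NC. Most of this sum was Des, at 680 FPKM for PRP-MNs, 618 for PRP, 274 for MNs and 275 for NC. Des, like the skeletal muscle marker sum, was higher in both libraries with PRP than in both without it. The part of skeletal muscle RNA in the Des level was not tested. Every other pericyte and smooth muscle marker was highest in MNs. Acta2 was at 101 FPKM for PRP-MNs, 50.8 for PRP, 146 for MNs and 16.5 for NC. None of the markers of these 6 cell types was listed at 0 in any library. Their part in the Pdgfra level was not tested.

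The beta receptor gene Pdgfrb, known from pericytes and fibroblasts, had the same order of libraries as Pdgfra. It was at 19.5 FPKM for PRP-MNs, 7.41 for PRP, 27.1 for MNs and 2.58 for NC. The level of Pdgfra over that of Pdgfrb was 2.34 for PRP-MNs, 2.10 for PRP, 2.21 for MNs and 1.84 for NC, a narrow range beside the differences of either gene. Pdgfrl, which encodes a receptor-like protein without a kinase, did not have that order. It was at 1.10 FPKM for PRP-MNs, 5.31 for PRP, 18.2 for MNs and 3.64 for NC, so MNs was its highest and PRP-MNs its lowest library. Pdgfd, the gene of a further latent ligand, was at 1.79 FPKM for PRP-MNs, 2.89 for PRP, 3.95 for MNs and 1.69 for NC.

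**Figure D1:**
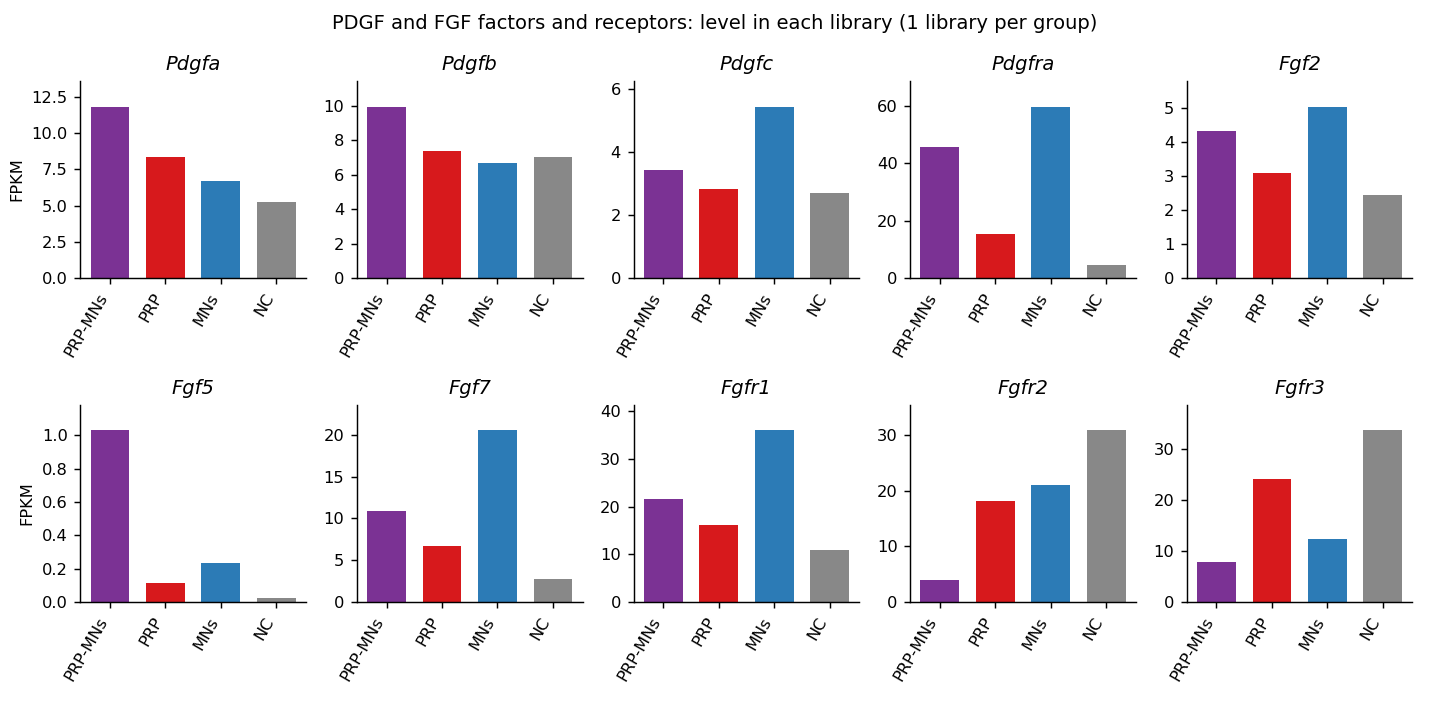
Level of each of the 10 genes in FPKM (vertical axes, each starting at 0 with its own range) in the PRP-MNs, PRP, MNs and NC libraries; each bar is 1 library, so there are no error bars. Pdgfra, Fgf7 and Fgfr1 are highest in MNs and lowest in NC, whereas Fgfr2 and Fgfr3 are highest in NC and lowest in PRP-MNs.

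Of the FGF factor genes, Fgf7 differed most among those above the floor in every library. It stood at 10.9 FPKM for PRP-MNs, 6.76 for PRP, 20.5 for MNs and 2.72 for NC. MNs was the highest library and NC the lowest, the order also seen for Pdgfra. Fgf7 was 4.01-fold higher in PRP-MNs than in NC (3.30 to 4.85), 2.49-fold higher in PRP (2.02 to 3.05) and 7.56-fold higher in MNs (6.31 to 9.05). In PRP-MNs it was at 0.530 of the MNs level (0.475 to 0.590). Fgf7 (ENSMUSG00000027208) spans GRCm38 chr2:126034658-126091185 on the plus strand.

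Fgf2, a factor without a classical secretion signal that acts on fibroblasts and endothelium, had the same order with smaller differences. It was at 4.31 FPKM for PRP-MNs, 3.08 for PRP, 5.02 for MNs and 2.45 for NC. PRP-MNs stood 1.76-fold above NC (1.51 to 2.05) and MNs 2.05-fold (1.77 to 2.37). The exons of Fgf2 share 640 of 6782 bases with Nudt6, a gene on the opposite strand. The sources used here do not state the strand setting, so fragments there cannot be assigned. Nudt6 itself was at 1.96 FPKM for PRP-MNs, 4.31 for PRP, 2.10 for MNs and 3.18 for NC, an order other than that of Fgf2.

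Fgf5 was the lowest of the 10 genes, and only PRP-MNs reached 1 FPKM. It was at 1.03 FPKM for PRP-MNs, 0.112 for PRP, 0.233 for MNs and 0.0204 for NC. On its transcript of 2501 bases these levels corresponded to about 44 fragments for PRP-MNs, 4 for PRP, 11 for MNs and 1 for NC. PRP-MNs was thus higher than MNs by a ratio of 4.41 (2.19 to 9.26) and higher than PRP by 9.19 (3.70 to 38.9). The ratio of PRP-MNs to NC, 50.4, rested on about 1 fragment in NC and had an interval of 8.42 to 1996. On the log2 scale of FPKM + 1 the same difference was 0.99, just under 2-fold, because the added 1 FPKM outweighs low levels. Fgf5 (ENSMUSG00000029337) lies on GRCm38 at chr5:98254184-98277030 on the plus strand.

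The sum of these 3 FGF factor genes was 16.2 FPKM for PRP-MNs, 9.95 for PRP, 25.8 for MNs and 5.19 for NC. Fgf7 made up 67.1% of it for PRP-MNs, 67.9% for PRP, 79.6% for MNs and 52.4% for NC. Fgf2 held 47.2% in NC and 19.5% in MNs.

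The 3 FGF receptor genes went in opposite directions. Fgfr1, in skin mainly a receptor of dermal cells, was at 21.5 FPKM for PRP-MNs, 16.2 for PRP, 36.0 for MNs and 10.9 for NC. All 3 treated libraries were above NC: PRP-MNs 1.97-fold (1.83 to 2.13), PRP 1.48-fold (1.36 to 1.61) and MNs 3.29-fold (3.07 to 3.53). Fgfr1 (ENSMUSG00000031565) spans GRCm38 chr8:25513654-25575718 on the plus strand.

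Fgfr2, whose epithelial splice form is the receptor of Fgf7, was lowest where both treatments were combined. It was at 3.88 FPKM for PRP-MNs, 18.2 for PRP, 20.96 for MNs and 30.8 for NC. PRP and MNs lay close to each other, NC was above them and PRP-MNs far below. The NC level was 7.95-fold that of PRP-MNs, and the ratio of PRP-MNs to NC was 0.126 (0.111 to 0.142). Against MNs the ratio was 0.185 (0.163 to 0.210) and against PRP 0.214 (0.187 to 0.243). PRP alone was at 0.589 of NC (0.550 to 0.631) and MNs alone at 0.680 (0.639 to 0.724). The table gives 1 value per gene, so epithelial and mesenchymal splice forms of Fgfr2 cannot be told apart. Fgfr2 (ENSMUSG00000030849) is annotated at chr7:130162451-133123350 on the minus strand of GRCm38, a span that includes a long transcript sharing 314 exon bases with Ctbp2.

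Fgfr3, a receptor gene of keratinocytes above the basal layer, was also highest in NC. It was at 7.81 FPKM for PRP-MNs, 24.0 for PRP, 12.3 for MNs and 33.7 for NC. Both libraries with microneedles were below both without, unlike Fgfr2, for which MNs stood above PRP. The ratio to NC was 0.232 in PRP-MNs (0.212 to 0.254), 0.714 in PRP (0.671 to 0.759) and 0.365 in MNs (0.339 to 0.393). Fgfr3 (ENSMUSG00000054252) lies at chr5:33721674-33737068 on the plus strand of GRCm38.

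The libraries differed in the makeup of their FGF receptor transcripts. Fgfr1, Fgfr2 and Fgfr3 together were at 33.2 FPKM for PRP-MNs, 58.4 for PRP, 69.2 for MNs and 75.4 for NC. Fgfr1 made up 64.8% of the sum for PRP-MNs, 27.7% for PRP, 52.0% for MNs and 14.5% for NC. Fgfr2 made up 11.7% for PRP-MNs, 31.1% for PRP, 30.3% for MNs and 40.9% for NC. The level of Fgfr1 over that of Fgfr2 was 5.55 for PRP-MNs, 0.891 for PRP, 1.72 for MNs and 0.354 for NC.

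**Figure D2:**
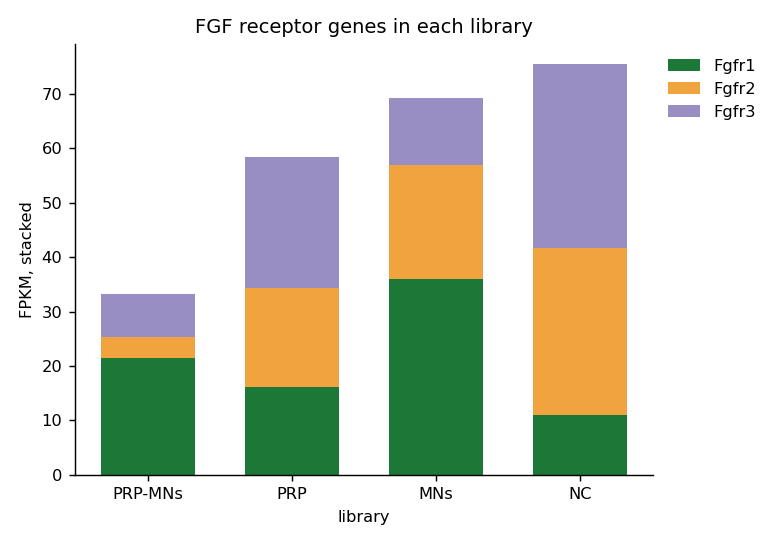
Levels of Fgfr1, Fgfr2 and Fgfr3 in FPKM, stacked (vertical axis), in each of the 4 libraries; there are no error bars because each group has 1 library. Fgfr1 makes up 64.8% of the stack in PRP-MNs and 14.5% in NC.

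The sums of keratinocyte markers were lower in the same libraries as Fgfr2 and Fgfr3. The 6 basal keratinocyte markers summed to 2896 FPKM for PRP-MNs, 5810 for PRP, 5180 for MNs and 6623 for NC, with none at 0. The PRP-MNs sum was 0.437 of NC, beside 0.126 for Fgfr2. None of the 6 basal markers was above its NC level in PRP-MNs, 1 was in PRP and 2 were in MNs. Itga6, the gene of an integrin of the basal cell surface, hardly differed between libraries, at 61.2 FPKM for PRP-MNs, 64.7 for PRP, 62.7 for MNs and 61.3 for NC. The 6 suprabasal markers summed to 1666 FPKM for PRP-MNs, 9810 for PRP, 3567 for MNs and 18841 for NC, again with none at 0. Their ratio to NC was 0.0884 in PRP-MNs, 0.521 in PRP and 0.189 in MNs, the same order of libraries as Fgfr3 and with larger differences, and none of the 6 was above its NC level in any of these libraries. Krt5, the basal keratin, was at 689 FPKM in PRP-MNs against 2348 FPKM in NC, and Krt10, the suprabasal keratin, at 475 FPKM against 6056 FPKM. The part of keratinocyte RNA in the Fgfr2 and Fgfr3 levels was not tested.

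**Figure D3:**
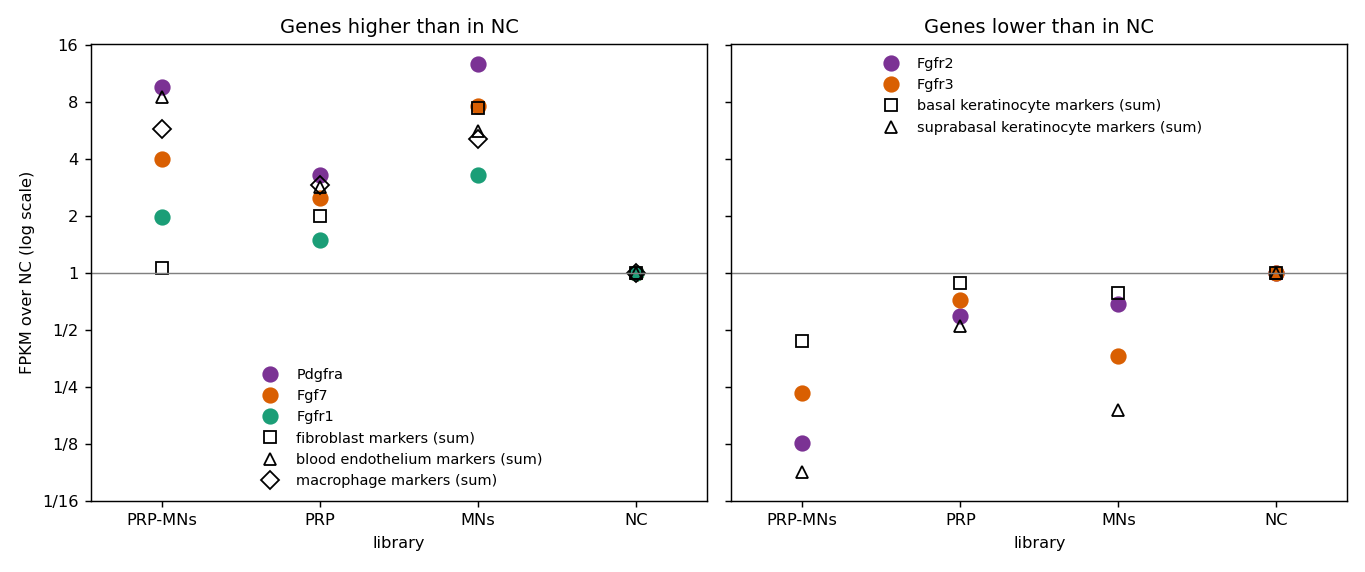
Level over that of NC (vertical axis, log scale) in the 4 libraries (horizontal axis) for single genes (filled points) and for sums of cell type markers (open symbols); 1 library per group. In PRP-MNs Pdgfra is at 9.60 and the fibroblast sum at 1.05, while Fgfr2 is at 0.126 and the basal keratinocyte sum at 0.437.

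For counts, a gene was read if either library compared had 1 FPKM or more, and its difference was the log2 ratio of FPKM + 1. PRP-MNs was set against NC to ask how skin given PRP with microneedles differed from the NC group. All 10 members were read, and in PRP-MNs 3 of them (Pdgfa, Pdgfra and Fgf7) stood at least 2-fold above NC, against 17.6% of all 13981 genes. A further 2 (Fgfr2 and Fgfr3) were at least 2-fold lower, against 11.5% of all genes. The log2 differences were 3.02 for Pdgfra, 1.68 for Fgf7, 1.03 for Pdgfa, −2.71 for Fgfr2 and −1.98 for Fgfr3. Pdgfa lay just past the threshold, and Fgf5 (0.99) and Fgfr1 (0.92) just short of it. The median member differed by 0.77 and the median of all genes by 0.14.

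For PRP against NC, 9 members were read, and Pdgfra (1.53) and Fgf7 (1.06) were at least 2-fold higher, against 7.78% of all genes. None was 2-fold lower, against 1.46% of all genes, and the lowest value was −0.73 for Fgfr2. For MNs against NC, 9 members were read. Pdgfra (3.40), Fgf7 (2.53) and Fgfr1 (1.63) were at least 2-fold higher, against 15.7% of all genes, and Fgfr3 (−1.38) was 2-fold lower, against 7.12%. Of all genes past 2-fold between MNs and NC, 68.8% were higher, or 57.8% once differences were centred on the median of all genes. Fgf5 was not read in either comparison. The 3 comparisons share the NC library, so a level particular to that library enters each of them.

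Against PRP, PRP-MNs had 1 member at least 2-fold higher, Pdgfra (1.49, 9.54% of all genes), and 2 members 2-fold lower, Fgfr2 (−1.97) and Fgfr3 (−1.51, 7.5% of all genes). Against MNs, PRP-MNs had no member 2-fold higher (7.16% of all genes) and 1 that was 2-fold lower, Fgfr2 (−2.17, 7.39% of all genes). With 10 members these counts are a description of the named genes.

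**Figure D4:**
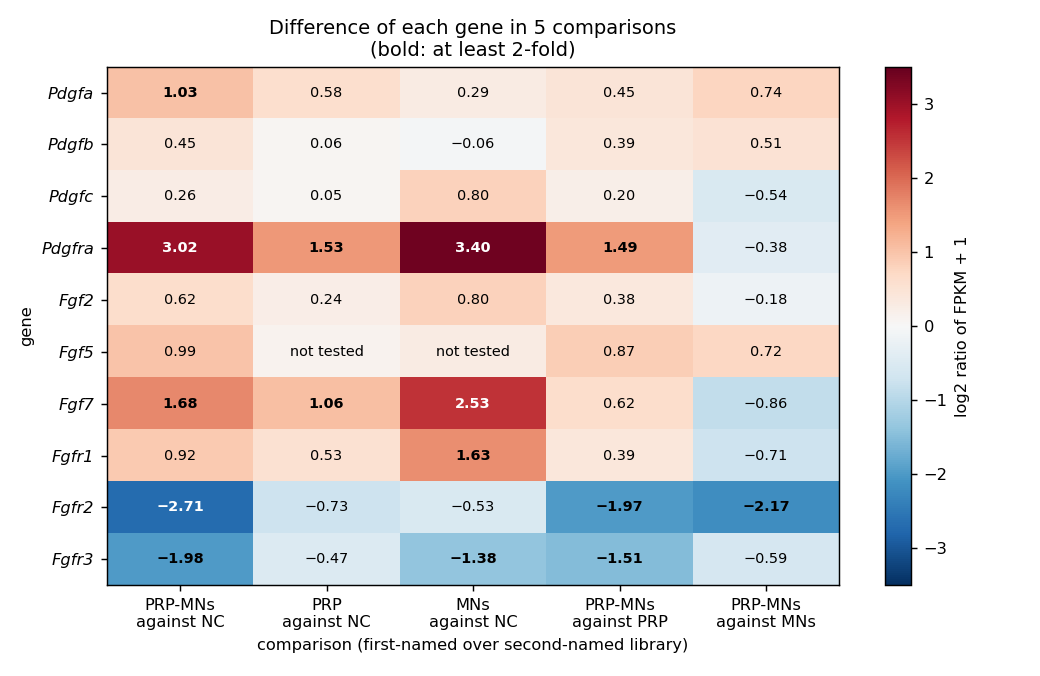
Log2 ratio of FPKM + 1 (colour and number) for each of the 10 genes (rows) in the 5 comparisons (columns), the first-named library over the second; values at or past 2-fold are bold, and a gene under 1 FPKM in both libraries is marked as not tested. Fgfr2 is at −2.71, −1.97 and −2.17 in the 3 comparisons of PRP-MNs, and Pdgfra at 3.02 and 3.40 in PRP-MNs and MNs against NC.

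With NC taken as skin given neither treatment, which the labels do not state, the 4 groups form a layout with and without each treatment. PRP-MNs against PRP and MNs against NC share no library. Of 9 members read in both, 8 had the same sign with microneedles whether or not PRP was given, beside 71.1% of all genes. The exception was Pdgfb, at 0.39 in PRP-MNs against PRP and −0.06 in MNs against NC, and its second sign turned positive (0.08) after rescaling without mitochondrial genes. The interval of MNs over NC for Pdgfb (0.827 to 1.10) included 1. So did that of PRP-MNs over PRP for Pdgfc (0.972 to 1.49), which is among the 8. Fgfr3 was nearly alike in the pair (−1.51 and −1.38). Pdgfra (1.49 and 3.40), Fgf7 (0.62 and 2.53) and Fgfr1 (0.39 and 1.63) were higher with microneedles in both, by less where PRP was given. Fgfr2 was lower in both, at −1.97 where PRP was given and −0.53 where it was not.

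The pair for PRP, PRP-MNs against MNs and PRP against NC, gave another picture. Of 9 members read in both, 4 had the same sign (Pdgfa, Pdgfb, Fgfr2 and Fgfr3) and 5 the opposite, beside 57.5% and 42.5% of all genes. Pdgfa was higher with PRP in both (0.74 and 0.58). Pdgfb was at 0.51 and 0.06, the second within counting error (PRP over NC, 0.909 to 1.22). Pdgfra, Fgf7, Fgfr1 and Fgf2 were higher in PRP than in NC and lower in PRP-MNs than in MNs. Pdgfc had the same signs, but its interval of PRP over NC (0.845 to 1.31) included 1. The counts of 4 and 5 thus rest partly on differences within counting error. Fgf5, read in only 1 of each pair, was higher in PRP-MNs than in PRP (0.87) and than in MNs (0.72).

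**Figure D5:**
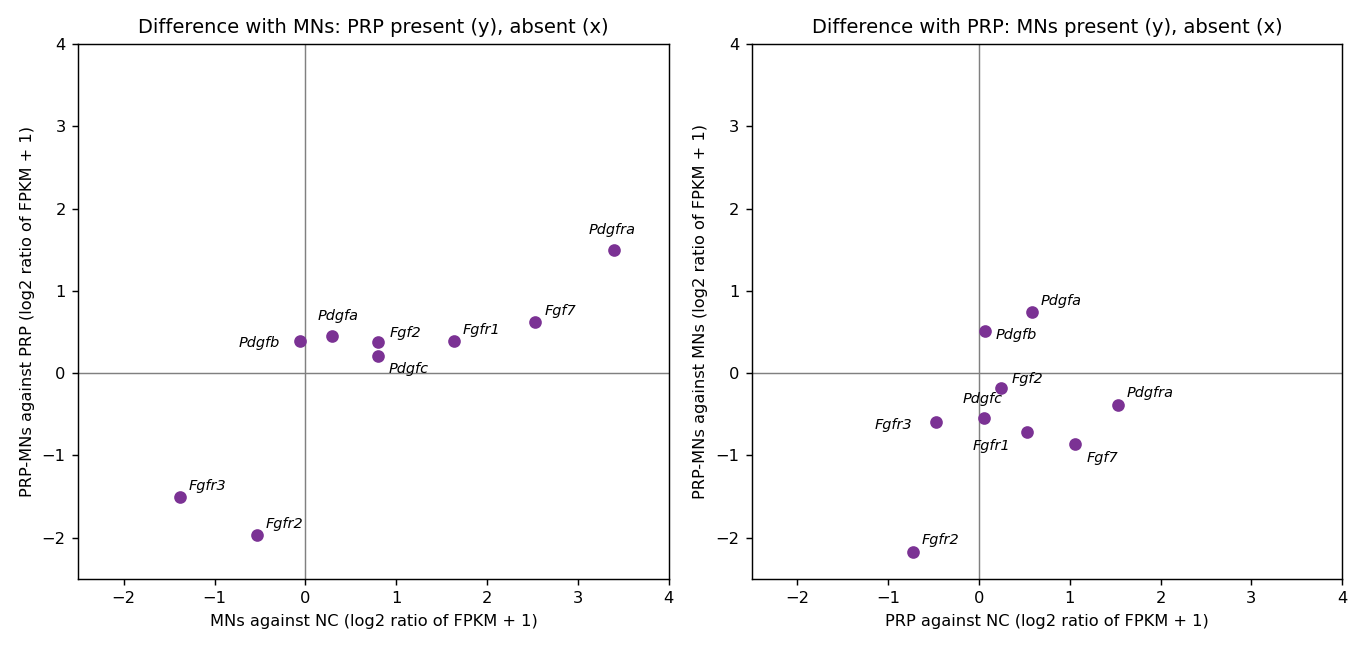
Log2 ratio of FPKM + 1 of 9 genes with microneedles (left) and with PRP (right), where the other treatment was present (vertical axis) and absent (horizontal axis); each point is 1 gene from 4 single libraries. On the left 8 genes have the same sign on both axes, and on the right 5 genes lie in the quadrant that is positive without and negative with microneedles. NC is taken as skin given neither treatment.

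Further genes of both pathways were read from lists. Of 19 other FGF factor genes, 5 reached 1 FPKM in PRP-MNs or NC. Fgf13, whose protein stays inside the cell, was at 10.01 FPKM for PRP-MNs, 8.19 for PRP, 5.90 for MNs and 3.97 for NC, an order like that of Pdgfa. Fgf22, an epithelial factor, was at 1.52 FPKM for PRP-MNs, 4.03 for PRP, 1.75 for MNs and 9.30 for NC, an order like that of Fgfr3. Fgf22 shares 82 exon bases with Rnf126 on the opposite strand. Fgf23, a hormone of phosphate balance made chiefly in bone, was at 4.01 FPKM for PRP-MNs, 1.40 for PRP and 7.35 for MNs, and it was listed at 0 for NC.

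Fgf10 and Fgf18 differed from Fgf7 in the PRP-MNs library. Fgf10, a ligand of the same epithelial receptor form as Fgf7, was at 0.529 FPKM for PRP-MNs, 0.707 for PRP, 2.83 for MNs and 0.592 for NC. Fgf18, a factor of the resting hair follicle, was at 0.565 FPKM for PRP-MNs, 1.996 for PRP, 4.02 for MNs and 0.941 for NC. Both were highest in MNs, and in PRP-MNs neither exceeded its NC level, where Fgf7 was 4.01-fold above it. Fgf1, a ligand of all FGF receptors, varied little, at 5.99 FPKM for PRP-MNs, 6.13 for PRP, 4.57 for MNs and 3.9999 for NC.

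Among 6 other receptor and partner genes, 4 were read in PRP-MNs against NC, with 1 at least 2-fold higher and 1 lower (17.6% and 11.5% of all genes). Fgfrl1, a receptor without a kinase domain, was at 7.62 FPKM for PRP-MNs, 3.79 for PRP, 7.84 for MNs and 3.15 for NC, so that both microneedle libraries were high. Fgfbp1, a carrier protein that frees FGFs from the matrix and is made by keratinocytes, was at 49.9 FPKM for PRP-MNs, 137 for PRP, 131 for MNs and 168 for NC, with PRP-MNs apart from the other three as for Fgfr2. Fgfbp3, another carrier gene, was at 1.94 FPKM for PRP-MNs, 1.40 for PRP, 5.37 for MNs and 0.771 for NC.

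Feedback and target genes of these receptors were mixed. Of 16 such genes, 14 were read in PRP-MNs against NC, 7 were at least 2-fold higher and 2 lower (17.6% and 11.5% of all genes), with a median of 0.69 beside 0.14 over all genes. Against PRP, PRP-MNs had 7 of 15 higher and none lower, beside 9.54% and 7.5% of all genes. Against MNs, PRP-MNs had 3 of 16 higher and 5 lower, beside 7.16% and 7.39% of all genes. The list median there was −0.37. In MNs against NC, 5 of 16 were higher and 1 was lower, beside 15.7% and 7.12% of all genes. In PRP against NC none of 13 was higher and 1 was lower, beside 7.78% and 1.46% of all genes. Dusp5, a phosphatase of ERK kinases, was at 25.8 FPKM for PRP-MNs, 5.15 for PRP, 11.1 for MNs and 7.01 for NC. Spred1, an inhibitor of Ras signalling, was at 31.8 FPKM for PRP-MNs, 11.6 for PRP, 20.5 for MNs and 9.47 for NC, and its relative Spred3 at 4.09, 0.932, 1.00 and 0.889 FPKM in that order. Dusp6, a widely used readout of FGF signalling, did not share that pattern: it was at 25.7 FPKM for PRP-MNs, 25.4 for PRP, 39.5 for MNs and 32.7 for NC. The 2 lower genes, Spry1 and Etv4, were both lowest in PRP-MNs. Spry1 was at 6.33 FPKM for PRP-MNs, 13.0 for PRP, 15.7 for MNs and 18.1 for NC. Etv4 was at 4.04, 7.39, 11.1 and 11.9 FPKM in that order. These genes also answer to other receptor tyrosine kinases.

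The shared signal transducers differed little. Of 21 genes read in PRP-MNs against NC, 2 were at least 2-fold higher, Map2k1 (54.1 FPKM in PRP-MNs, against 16.4 FPKM in NC) and Grb2 (58.9 FPKM in PRP-MNs, against 23.0 FPKM in NC), and 1 was lower, Hras (53.6 FPKM in PRP-MNs, against 118 FPKM in NC). Map2k1 encodes a kinase of the ERK cascade, Grb2 an adaptor and Hras a small GTPase. Over all genes the shares were 17.6% higher and 11.5% lower, and the list median of 0.17 lay close to the 0.14 of all genes.

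The genes most like each member were sought among 10130 genes with 5 FPKM or more in any library, by the root mean square difference between log2 values of FPKM + 1 centred over the 4 libraries. Over 4 values many genes come close to any pattern, so these are a description. Nearest to Pdgfra were Bcat1 (a difference of 0.02), Fbln2 (0.06) and Cd300ld4 (0.11). Fbln2 encodes the matrix protein fibulin-2 and was at 58.8 FPKM for PRP-MNs, 21.2 for PRP, 71.8 for MNs and 6.58 for NC. Nearest to Fgf7 were Fbn1 (0.03), the vasopressin receptor gene Avpr1a (0.06) and Adgrd1 (0.08), and nearest to Fgfr1 were Ltbp4 (0.04), Tcn2 (0.05) and Limk1 (0.07). Genes near to Fgfr2 were Rnase1 (0.06) and Ccl27b (0.07). Fgfr3 was matched by Ociad2 (0.01), Macc1 (0.02) and Avpi1 (0.02).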

How the data were processed

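RNA-seq of mouse skin gave 4 libraries, 1 in each group. The authors deposited FPKM values for 25571 genes with 1 column per library. The submitters' processing notes name GRCm38 as build, and per the labels' protocols the library kit was NEBNext Ultra. The aligner, quantifier, annotation and strand setting are not stated in the sources used here, and the annotation below is not necessarily theirs. A total of 22022 identifiers matched GENCODE release M21 (GRCm38), the source of positions and transcript lengths. Promoters came from RefSeq (GRCm38.p6).

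From the FPKM values, log2 ratios of FPKM + 1 were computed with Python 3.11.15 and pandas 2.3.3 for 5 comparisons, in genes at or above 1 FPKM in 1 of the 2 libraries. With 1 library per group no test was run and 2-fold was a rule of size. Depth was estimated as the value at which most low values of genes with a single transcript were whole fragments to a tolerance of 0.02 (21.2% to 25.0%, against medians of 3.15% to 3.65% over the values tried). Fragments of members are FPKM × transcript length × depth, rounded. The 2-fold rule was checked on known changes put into the NC values. The depths, fragment numbers, counting intervals and nearest patterns were not part of that check. Members, lists and named genes were chosen with earlier results of these data known. Named genes were the 10 members, up to 3 per list with the largest difference between PRP-MNs and NC, a few relatives fixed by name, and the 3 genes nearest to a member's pattern, of which 1 is not reported here. Itga6, Krt10, Gp9, Nudt6, Des, Corin, Rspo3, S100a8, S100a9, Spry1 and Etv4 were named after their values were seen. The 5 alternatives were a pseudocount of 0.1, no filter, a filter at 5 FPKM, rescaling without mitochondrial genes and centring.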

Additional observations from a re-analysis of the deposited data

Results flagged for a closer look

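For 6 members the sign of a treatment's difference was opposite with and without the other treatment. Each difference rests on single libraries and was not tested. Fgf7 was lower in PRP-MNs than in MNs (−0.86 on the log2 scale of FPKM + 1) and higher in PRP than in NC (1.06), 1 minus the other being −1.92. Pdgfra gave −0.38 and 1.53 in the same comparisons (−1.91), Fgfr1 −0.71 and 0.53 (−1.24), Pdgfc −0.54 and 0.05 (−0.60), and Fgf2 −0.18 and 0.24 (−0.42). Pdgfb was higher in PRP-MNs than in PRP (0.39) and at −0.06 in MNs against NC (0.44). The small values of Pdgfc (PRP over NC, 0.845 to 1.31) and Pdgfb (MNs over NC, 0.827 to 1.10) were within counting error. For Pdgfc and Pdgfb a reversal of sign is therefore not established. Opposite signs were found in 42.5% of all genes in the PRP pair and in 28.9% in the microneedle pair.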

How the results depend on the processing

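The alternatives left 57 of 60 member counts within 1.5 times and 224 of 231 member differences on the same side of 2-fold. Removing the filter or setting it at 5 FPKM changes only which genes are read, not a gene's log2 difference. The values under these settings, part of the 231, could therefore not move or change sign. A gene under 1 FPKM in both libraries cannot reach 2-fold on the scale of FPKM + 1. The counts of members at least 2-fold higher or lower without the filter, part of the 60, could therefore not move either. After rescaling without mitochondrial genes, PRP-MNs exceeded NC at least 2-fold for 5 members in place of 3, Fgf5 and Fgfr1 being added, and the median of all genes was 0.27 in place of 0.14. In MNs against NC that median was 0.30 in place of 0.16. With a pseudocount of 0.1, Fgf5 was added, giving 2 members higher in PRP-MNs than in PRP in place of 1 and 1 member higher in PRP-MNs than in MNs in place of 0. Centred on the median of all genes, Pdgfa in PRP-MNs against NC was at 0.89, under 2-fold. The sign of 1 of 48 member differences changed, Pdgfb in MNs against NC (0.08 after rescaling). Of all genes in PRP against NC, 1053 were higher and 197 lower, which became 1644 and 432 with a pseudocount of 0.1 and 812 and 130 with a filter at 5 FPKM. No paired analysis was possible because each group has 1 library. Differences between animals cannot be seen with 1 library per group, and at this depth Fgf5 rests on about 1 fragment in NC and 4 in PRP.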

Other observations

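Heparan sulfate proteoglycans hold FGFs near their receptors. A list of 18 genes held such proteoglycans together with enzymes that act on heparan sulfate, and 17 were read in PRP-MNs against NC. Of these, 4 were at least 2-fold higher and none lower, beside 17.6% and 11.5% of all genes (list median 0.43, and 0.14 over all genes). In MNs against NC, 8 of 18 were higher and none lower, beside 15.7% and 7.12% of all genes (list median 0.77, and 0.16 over all genes). The syndecan gene Sdc3 was at 99.6 FPKM for PRP-MNs, 38.4 for PRP, 30.3 for MNs and 4.81 for NC. Hspg2, the gene of the basement membrane proteoglycan perlecan, was at 25.3 FPKM for PRP-MNs, 11.01 for PRP, 29.3 for MNs and 4.35 for NC. Sulf1, an enzyme that removes sulfate from heparan sulfate, was at 11.5 FPKM for PRP-MNs, 6.04 for PRP, 11.5 for MNs and 2.43 for NC.

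Of 7 genes that process or bind PDGFs, 6 were read in PRP-MNs against NC and 4 were at least 2-fold higher and none lower, beside 17.6% and 11.5% of all genes (list median 1.55, and 0.14 over all genes). Plat, the protease that activates the Pdgfc protein, was at 18.6 FPKM for PRP-MNs, 10.6 for PRP, 20.0 for MNs and 5.11 for NC, with both microneedle libraries high, whereas Pdgfc was high in MNs alone. Nrp1, a co-receptor, was at 19.4 FPKM for PRP-MNs, 11.7 for PRP, 26.2 for MNs and 2.73 for NC. Lrp1, an endocytic receptor that modulates PDGF receptor signalling, was at 46.2 FPKM for PRP-MNs, 23.4 for PRP, 111 for MNs and 9.46 for NC. Nrp1 and Lrp1 thus had the order of libraries seen for Pdgfra.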
